A study of Homo sapiens with 4 samples.

Results

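Transcripts of 9 genes at the core of Hedgehog signalling were read in fusion-negative rhabdomyosarcoma cells with and without knockdown of SKP2. The genes were chosen by symbol for their place in the pathway: the receptors PTCH1 and SMO, the coreceptors BOC and CDON, the ligand antagonist HHIP, the intracellular regulator SUFU and the transcription factors GLI1, GLI2 and GLI3. All 9 were found among the 39323 genes of the tables, and 7 averaged 1 TPM or more and were compared, as were 12985 genes in all, while GLI1 and HHIP lay under that level. The cells were RD and JR1, established tumor lines in growth medium with serum, transduced with a lentiviral vector for a hairpin against SKP2 (shSKP2, the hairpin named shSKP2.2) or for a non-targeting hairpin (shSCR), then selected with puromycin. The labels call the shSCR cells WT and the shSKP2 cells SKP2 knockdown. There was 1 poly-A library per line and hairpin, 4 in all. Every library thus came from transduced cells, and untransduced cells or a second hairpin were not analysed here.

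In cells without ligand, PTCH1 holds SMO inactive, and SUFU together with kinases keeps the GLI proteins in the cytoplasm or has them cut to repressors, which come mainly from GLI3. When a Hedgehog ligand binds PTCH1 with a coreceptor such as BOC, CDON or GAS1, SMO enters the primary cilium and GLI2 acts as the main activator. PTCH1, HHIP and GLI1 are themselves targets of the GLI factors and serve as readouts of the pathway. The pathway patterns the somites that form skeletal muscle, BOC and CDON also act in myoblasts as promoters of differentiation, and loss of PTCH1 or SUFU predisposes to tumors.

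The values are TPM, transcript abundances scaled to a fixed total of 1000000 in each library and corrected for transcript length, so that genes can be compared within a library. Their precision is unknown because TPM carry no read counts. A difference is the log2 ratio of TPM + 1, and a gene is said to have fallen or risen only where it differed by 2-fold or more (1 on the log2 scale). Each group is a single library, so a difference within 1 line or between the lines could not be set against a spread between replicates and carries no p-value. SKP2, the targeted gene, was at 92.8 TPM in RD shSCR, 7.40 in RD shSKP2, 46.5 in JR1 shSCR and 2.72 in JR1 shSKP2. Short structural RNAs took 58.6% of the TPM in RD shSCR, 69.1% in RD shSKP2, 66.5% in JR1 shSCR and 72.1% in JR1 shSKP2, which presses all other values down unequally. Over all compared genes, the median difference after knockdown was below 0, at -0.27 (RD) and -0.21 (JR1), on the log2 scale. Each member is also given relative to this median, and after the structural RNA genes were removed and the rest rescaled to the same total (median 0.12 in RD and 0.01 in JR1). The lineage was checked by markers. MYOD1, the muscle determination factor, lay between 87.0 and 131 TPM, whereas the 6 markers of blood, endothelium and epithelium reached at most 0.16 TPM. MYF5, another muscle determination factor, was listed at 0 in all 4 libraries. In bulk RNA, fewer cells with a transcript and less of it per cell cannot be told apart.

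Promoter windows from RefSeq (build GRCh38.p14, 250 bases before to 50 after a start) were found for 7 of the 9 genes, 15 windows in all. They were searched on both strands for the GLI binding word GACCACCCA, for the E-box CANNTG that myogenic factors such as MYOD bind, and for CAGCTG, one form of that E-box. The GLI word occurred in 1 of the 15 windows, against 0.236% of all 35116 promoter windows, and that window belongs to PTCH1. An E-box occurred in 8 of the 15, against 68.7% of all windows, and CAGCTG in 1, again of PTCH1, against 17.9%. Stretches of GLI2, the member that fell in both lines, and of PTCH1, chosen after the search because it holds the GLI word, are shown up to the first exon base in GENCODE release 44. They lie at chr2:120792031-120792282 (plus strand) and chr9:95509267-95509516 (minus strand). Both are upstream of starts inside the annotated gene, in introns of longer transcripts. Capitals mark whole E-boxes and, in PTCH1, also the GLI word as TGGGTGGTC on the strand shown.
GLI2: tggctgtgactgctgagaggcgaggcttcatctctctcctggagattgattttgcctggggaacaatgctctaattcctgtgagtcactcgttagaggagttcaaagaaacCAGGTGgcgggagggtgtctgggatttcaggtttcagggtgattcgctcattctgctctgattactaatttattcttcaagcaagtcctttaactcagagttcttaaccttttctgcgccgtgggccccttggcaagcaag
PTCH1: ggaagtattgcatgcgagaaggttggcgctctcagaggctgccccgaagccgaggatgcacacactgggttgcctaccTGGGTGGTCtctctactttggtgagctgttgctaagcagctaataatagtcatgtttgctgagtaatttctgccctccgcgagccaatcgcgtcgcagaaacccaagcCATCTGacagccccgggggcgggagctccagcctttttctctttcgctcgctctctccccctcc
GLI2 has the E-box CAGGTG in this stretch, and PTCH1 has CATCTG beside the GLI word. The other GLI2 window, at chr2:120735618-120735917, holds none of the 3 words. Of the BOC windows, chr3:113211307-113211606 holds the E-box CATATG and chr3:113211866-113212165 none of the words. A matching word describes the sequence only. Binding at these windows was not measured in these libraries.

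The core genes were transcribed at very unequal levels. In RD shSCR the order was BOC at 51.8 TPM, CDON at 36.2, GLI3 at 32.5, SMO at 28.8, GLI2 at 10.3, SUFU at 9.74, PTCH1 at 7.14, GLI1 at 0.51 and HHIP at 0.05 TPM. In JR1 shSCR, BOC (33.9 TPM) and CDON (30.3 TPM) again led, followed by SMO, GLI3, SUFU, PTCH1 and GLI2. Both lines thus carried abundant coreceptor transcripts beside little of the readouts GLI1 and HHIP. PTCH1, also a readout, was higher than these, at 7.14 TPM in RD shSCR and 5.78 TPM in JR1 shSCR. After knockdown CDON led in both lines, and BOC stood behind CDON and GLI3 in RD and behind CDON, SUFU and GLI3 in JR1. Which neighbours in these orders differ beyond the spread between cultures could not be judged from single libraries.

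**Figure D1:**
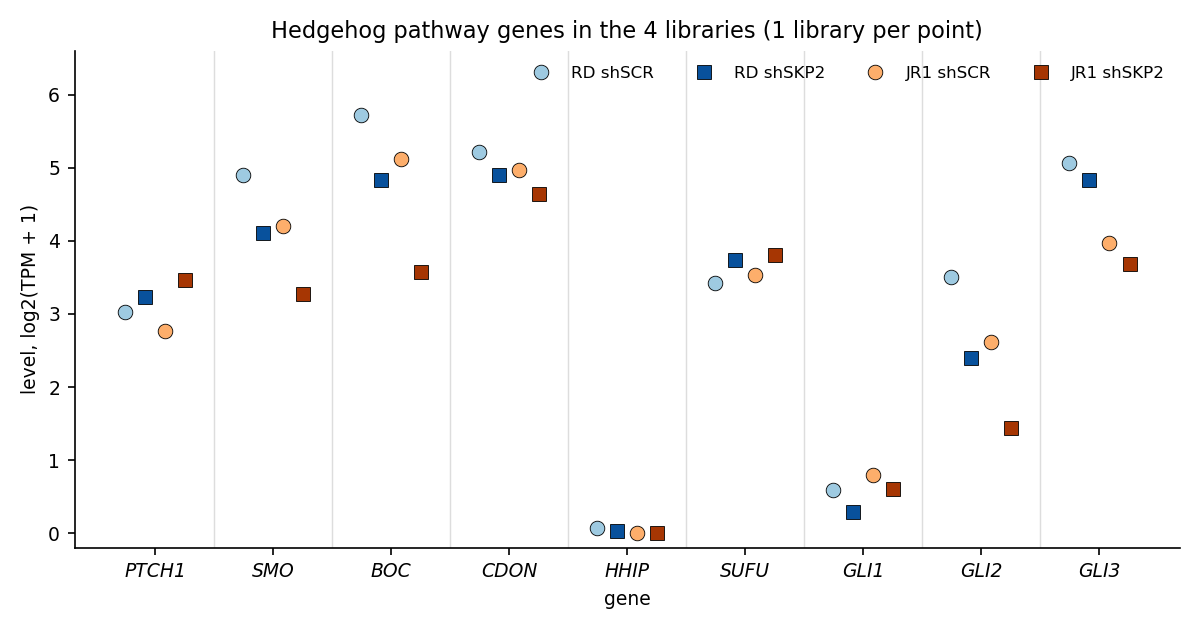
Level of each gene as log2(TPM + 1), with 1 point per library (circles shSCR, squares shSKP2, blue RD, orange JR1). GLI2 lies lower with shSKP2 in both lines, BOC is lowest in JR1 shSKP2, and GLI1 and HHIP stay near 0.

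The receptors differed in direction after SKP2 knockdown, PTCH1 being higher and SMO lower. PTCH1, which binds the ligand and restrains SMO (chromosome 9, from base 95442980 to base 95516971), was at 7.14 TPM in RD shSCR, 8.43 in RD shSKP2, 5.78 in JR1 shSCR and 10.06 in JR1 shSKP2. Its log2 changes of 0.21 and 0.71 stayed under the 2-fold limit. In JR1 only 3.75% of the compared genes had a higher change, and in RD 12.0% did. Without the structural RNA genes its changes were 0.63 in RD and 1.02 in JR1, so that the call in JR1 depends on the scaling. SMO, the signal transducer (chromosome 7, from base 129188633 to base 129213548), was at 28.8 TPM in RD shSCR, 16.2 in RD shSKP2, 17.4 in JR1 shSCR and 8.64 in JR1 shSKP2. The log2 changes of SMO were -0.80 and -0.93, and -0.40 and -0.72 without the structural RNA genes. In JR1 the TPM ratio of SMO without the added 1 TPM was 0.497, just past 2-fold. SMO was thus lower with shSKP2 in both lines under each scaling, without passing the limit on the scale of TPM + 1. Because both genes are read in the same library, their ratio does not depend on that scaling. There were 0.248 PTCH1 transcripts per SMO transcript in RD shSCR and 0.522 in RD shSKP2, a 2.10-fold rise of the ratio. In JR1 the ratio went from 0.333 to 1.16, a 3.50-fold rise, and JR1 shSKP2 was the only library with more PTCH1 than SMO.

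The coreceptors separated from each other. BOC (chromosome 3, from base 113211003 to base 113287463) fell in JR1 from 33.9 to 10.9 TPM, a log2 change of -1.55. In RD it was at 51.8 and 27.4 TPM, shSCR before shSKP2, a change of -0.89. The fall in JR1 passed the limit under every scaling, at -1.34 relative to the median and -1.35 without structural RNA genes. In RD these values were -0.62 and -0.49, under the limit. CDON, its closest relative in the immunoglobulin superfamily (chromosome 11, from base 125956813 to base 126063335), was at 36.2 TPM in RD shSCR, 28.8 in RD shSKP2, 30.3 in JR1 shSCR and 23.9 in JR1 shSKP2. The log2 changes of CDON, -0.32 and -0.33, lay close to the median of all compared genes, and without structural RNA genes they were 0.09 and -0.08. BOC transcripts per CDON transcript went from 1.43 to 0.953 in RD and from 1.12 to 0.454 in JR1. The difference between the lines in the change of BOC was -0.66, the widest of the 9 genes, and was not tested.

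SUFU, which binds GLI proteins and restrains them (chromosome 10, from base 102502801 to base 102633535), was at 9.74 TPM in RD shSCR, 12.4 in RD shSKP2, 10.5 in JR1 shSCR and 13.0 in JR1 shSKP2. Its log2 changes of 0.32 and 0.28 were under the limit but above those of most genes, with 8.25% of the compared genes higher in RD and 13.3% in JR1. Without structural RNA genes the changes of SUFU were 0.74 and 0.56. HHIP, a membrane protein that sequesters ligand (chromosome 4, from base 144646154 to base 144745271), was at 0.05 TPM in RD shSCR and 0.02 TPM in RD shSKP2 and was listed at 0 in both JR1 libraries. No change of HHIP is called at these levels.

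GLI2 was the member that fell in both lines. GLI2 (chromosome 2, from base 120735868 to base 120992653) was at 10.3 TPM in RD shSCR, 4.29 in RD shSKP2, 5.13 in JR1 shSCR and 1.71 in JR1 shSKP2, 0.415 and 0.333 times the control. Both shSKP2 libraries thus lay under both shSCR libraries. The log2 changes were -1.10 in RD and -1.18 in JR1, with 5.73% and 5.95% of the compared genes lower. Relative to the median they were -0.83 and -0.96, and without structural RNA genes -0.80 and -1.19, so the call in RD was lost under both scalings and the call in JR1 under the first. GLI3 (chromosome 7, from base 41960949 to base 42237209) was at 32.5 TPM in RD shSCR, 27.5 in RD shSKP2, 14.7 in JR1 shSCR and 11.8 in JR1 shSKP2, close to the median of all compared genes in both. Its log2 changes were -0.23 and -0.29, and 0.18 and -0.05 without structural RNA genes, so the direction in RD depends on the scaling. GLI1 (chromosome 12, from base 57459785 to base 57472451) was at 0.51 and 0.22 TPM in RD and at 0.73 and 0.52 TPM in JR1, shSCR before shSKP2. No change is called at these levels.

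The makeup of the GLI transcripts shifted towards GLI3 in both lines. GLI2 gave 23.8% of the summed GLI TPM with shSCR and 13.4% with shSKP2 in RD, and 25.0% and 12.2% in JR1. The share of GLI3 went from 75.0% to 85.9% in RD and from 71.4% to 84.1% in JR1. GLI1 gave between 0.688% and 3.71% of the sum. There were 3.14 GLI3 transcripts per GLI2 transcript in RD shSCR and 6.40 in RD shSKP2, against 2.86 and 6.90 in JR1. SUFU transcripts per GLI2 transcript went from 0.943 to 2.89 in RD and from 2.05 to 7.61 in JR1. These ratios do not depend on the structural RNA share, and each moved in the same direction in both lines. They describe transcripts, and cleaved and full-length GLI proteins were not measured here. GLI2 was at 1.71 TPM in JR1 shSKP2, so the counting error of the ratios per GLI2 in that library is unknown. Ratio shifts of other pairs of genes in the transcriptome were not computed for comparison.

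Of the 9 genes, 7 of them compared, 1 fell in RD (GLI2), where 7.37% of the compared genes fell by 2-fold or more, and 2 fell in JR1 (GLI2 and BOC), where 9.05% did. No member rose in either line, against 1.08% of the compared genes in RD and 1.78% in JR1. Over the 7 compared members the median change was -0.32 (RD) and -0.33 (JR1), beside -0.27 and -0.21 for all compared genes. The group as a whole thus lay near the centre of the transcriptome, with PTCH1 and SUFU on one side and GLI2, BOC and SMO on the other. Lower values in both lines were seen for 5 of the 7 and higher values for 2, beside 61.1% and 17.01% of all compared genes. Relative to the median GLI3 differed in sign between the lines, as did 24.1% of all compared genes. Without structural RNA genes CDON and GLI3 did, beside 25.4% of all compared genes. Without structural RNA genes 0 of the members passed the limit in RD, where 3.45% of the compared genes fell and 4.4% rose. In JR1 GLI2 and BOC fell and PTCH1 rose under that scaling, where 7.49% fell and 4.91% rose.

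The knockdown was also compared over both lines together, with each line as a pair of libraries (limma on log2 of TPM + 1, the line as a block, Benjamini-Hochberg adjustment over all compared genes). SMO, BOC and GLI2 were lower with average log2 changes of -0.86, -1.22 and -1.14 and adjusted p of 0.00573, 0.00537 and 0.0038 in limma. By the same test 26.6% of all compared genes were lower and 3.84% higher. PTCH1 (0.46, adjusted p = 0.0833 in limma) and SUFU (0.30, adjusted p = 0.129 in limma) did not pass, but did so relative to each library's median (0.0301 and 0.0303) and without structural RNA genes (0.0209 and 0.0264). More genes were called higher there: 1187 of 12985 relative to the median and 1485 of 15218 without structural RNA genes, against 499 of 12985 as deposited. CDON and GLI3 did not pass under any of these scalings. The test has 1 residual degree of freedom, which is the disagreement between the lines, with 1 culture each. The spread behind these p-values came mostly from a trend over all compared genes (5.39 prior degrees of freedom). It is thus not mainly a spread of the gene itself between cultures. Without the block 0 members passed, and the lowest adjusted p was 0.333 in limma.

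**Figure D2:**
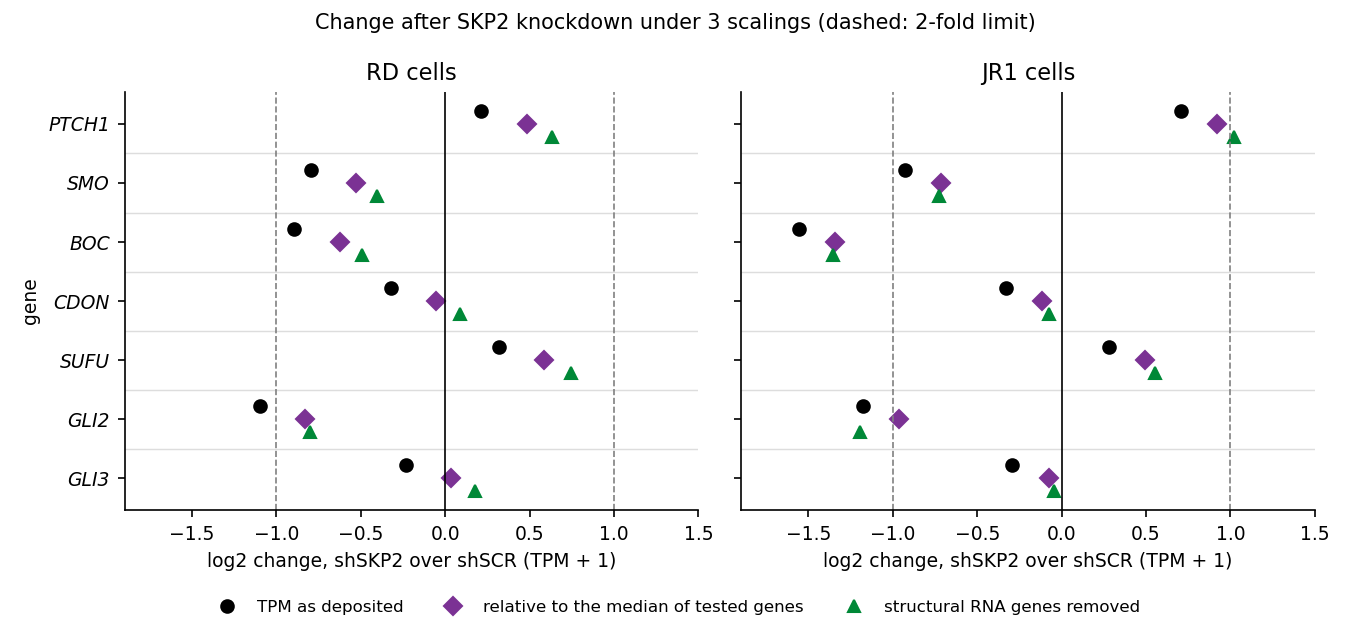
Log2 change of TPM + 1 (shSKP2 over shSCR) of the 7 compared genes in RD and JR1, with the TPM as deposited (circles), relative to the median of compared genes (diamonds) and without structural RNA genes (triangles). PTCH1 and SUFU lie right of 0 and SMO, BOC and GLI2 left of 0 in both lines under each scaling. CDON and GLI3 lie near the median of compared genes.

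Between the lines, 6 of the 7 compared members were lower in JR1 than in RD with shSCR and 5 with shSKP2, beside 71.4% and 67.8% of all compared genes. Without structural RNA genes GLI1 was compared as well, 8 members in all, and 4 were lower with shSCR and 5 with shSKP2. Under that scaling 46.5% and 55.2% of all compared genes were lower. With shSCR, GLI3 was at 14.7 TPM in JR1 and 32.5 TPM in RD, a log2 difference of -1.10, and it was the only member past the limit, where 6.5% of the compared genes were lower in JR1 and 3.44% higher. GLI2 differed by -0.89 and SMO by -0.70, beside a median of -0.23 over all compared genes. With shSKP2, BOC (-1.26) and GLI3 (-1.15) were lower in JR1 by more than the limit, where 5.39% of the compared genes were lower and 2.7% higher. GLI2 then differed by -0.965, and by -1.06 without structural RNA genes, past the limit. PTCH1 was lower in JR1 with shSCR (-0.26) and higher with shSKP2 (0.23). Without structural RNA genes GLI3 differed by -0.83 with shSCR, under the limit, and PTCH1 was at 17.2 TPM in both shSCR libraries of that scaling. The comparisons of the lines use the same 4 libraries as the knockdown comparisons and add no independent evidence.

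Transcripts of the ligands were close to absent. SHH reached at most 0.08 TPM, DHH 0.12 TPM and IHH 0.16 TPM in any library. Of the 9 genes for ligands and their acylation and release, 4 were compared, with median changes of -0.10 in RD and -0.12 in JR1. SCUBE3, which encodes a secreted protein of the family that helps release ligand, fell in RD from 4.15 to 0.98 TPM (-1.38) and was at 0.88 and 0.25 TPM in JR1. GAS1, a membrane-anchored coreceptor, was the most abundant of the receptor genes, at 167 TPM in RD shSCR and 173 TPM in RD shSKP2, and at 222 and 115 TPM in JR1. GPC3, a glypican that competes for ligand, fell in JR1 from 5.17 to 0.27 TPM (-2.28) and was at 1.11 and 0.21 TPM in RD (-0.80, and -1.13 without structural RNA genes, past the limit).

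Inside the cell, 26 of 26 listed cytoplasmic regulators were compared and 0 passed the limit in either line, beside the shares of all compared genes given above (7.37% and 9.05% lower, 1.08% and 1.78% higher). With an offset of 0.1 TPM, 1 fell in RD and 2 in JR1. Their median changes were -0.21 in RD and -0.13 in JR1, close to those of all compared genes. KIF7, the kinesin-like protein of the cilium tip that acts on GLI proteins, was named after its values were seen: it was at 7.18 and 3.97 TPM in RD (-0.72) and at 4.29 and 1.66 TPM in JR1 (-0.99). Of the 27 genes for cilium transport 26 were compared. TCTN1, of the ciliary transition zone, fell in RD from 10.4 to 4.53 TPM (-1.05, but -0.78 relative to the median) and was at 9.74 and 5.24 TPM in JR1. TULP3, an adaptor that brings receptors into the cilium, rose in JR1 from 8.24 to 19.1 TPM (1.12) and went from 12.8 to 21.5 TPM in RD (0.71). In RD TULP3 passed the limit without structural RNA genes (1.15) but not relative to the median (0.98). On the scale of TPM + 1 the other compared cilium genes stayed within the limit. With an offset of 0.1 TPM, 4 of the 26 fell in each line and 1 rose in JR1. As deposited, 21 of the 26 were lower in both lines, beside 61.1% of all compared genes. Relative to the median the number was 14, beside 37.9% of all compared genes.

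Of the 19 reported Hedgehog targets 10 were compared. CCND1, the cyclin of early G1, fell in both lines, in RD from 55.2 to 16.6 TPM (-1.68) and in JR1 from 106.7 to 29.4 TPM (-1.82), and did so under each scaling. CCND2, a related cyclin, fell in JR1 from 270.8 to 132 TPM (-1.03) and was at 41.1 and 33.5 TPM in RD. BMP4, a secreted morphogen, fell in JR1 from 15.6 to 5.55 TPM (-1.34) and was at 1.78 and 1.19 TPM in RD. Relative to the median the fall of CCND2 was -0.82, under the limit. JAG2, a Notch ligand, rose in RD from 14.5 to 32.0 TPM (1.09) and went from 22.6 to 42.8 TPM in JR1 (0.89). In JR1 JAG2 passed the limit relative to the median (1.10) and without structural RNA genes (1.17). The median change of the 10 was -0.07 in RD and -0.29 in JR1. Most of these genes answer to other pathways too, and no GLI dependence was measured here.

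Among 11 partners of BOC and CDON in myoblasts, 10 were compared. SPAG9, a scaffold for p38 signalling that binds CDON, fell in RD from 38.3 to 12.0 TPM (-1.60) and in JR1 from 32.7 to 14.8 TPM (-1.10, but -0.88 relative to the median). With an offset of 0.1 TPM, 2 of the 10 fell in each line and 1 rose in JR1. On the scale of TPM + 1 the 9 partners other than SPAG9 stayed within the limit in both lines. Of these, NEO1, a receptor that binds CDON, was at 1.66 and 2.51 TPM in RD (0.40) and at 1.16 and 3.03 TPM in JR1 (0.90), and in JR1 it passed the limit relative to the median (1.11) and without structural RNA genes (1.41). NEO1 and CDH15 were named after their values were seen. CDH15, the muscle cadherin, was at 47.1 and 59.4 TPM in RD and at 59.9 and 78.1 TPM in JR1. Of the muscle markers, PAX7, a factor of muscle progenitors, fell by 1.43 on the log2 scale in each line, in RD from 10.8 to 3.36 TPM and in JR1 from 4.84 to 1.16 TPM. MYOG, a factor of differentiation, was at 31.6 and 58.4 TPM in RD (0.87) and at 54.0 and 107 TPM in JR1 (0.98), and passed the limit relative to the median (1.14 and 1.19). The part of these muscle gene differences in the values of BOC and GLI2 was not tested.

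**Figure D3:**
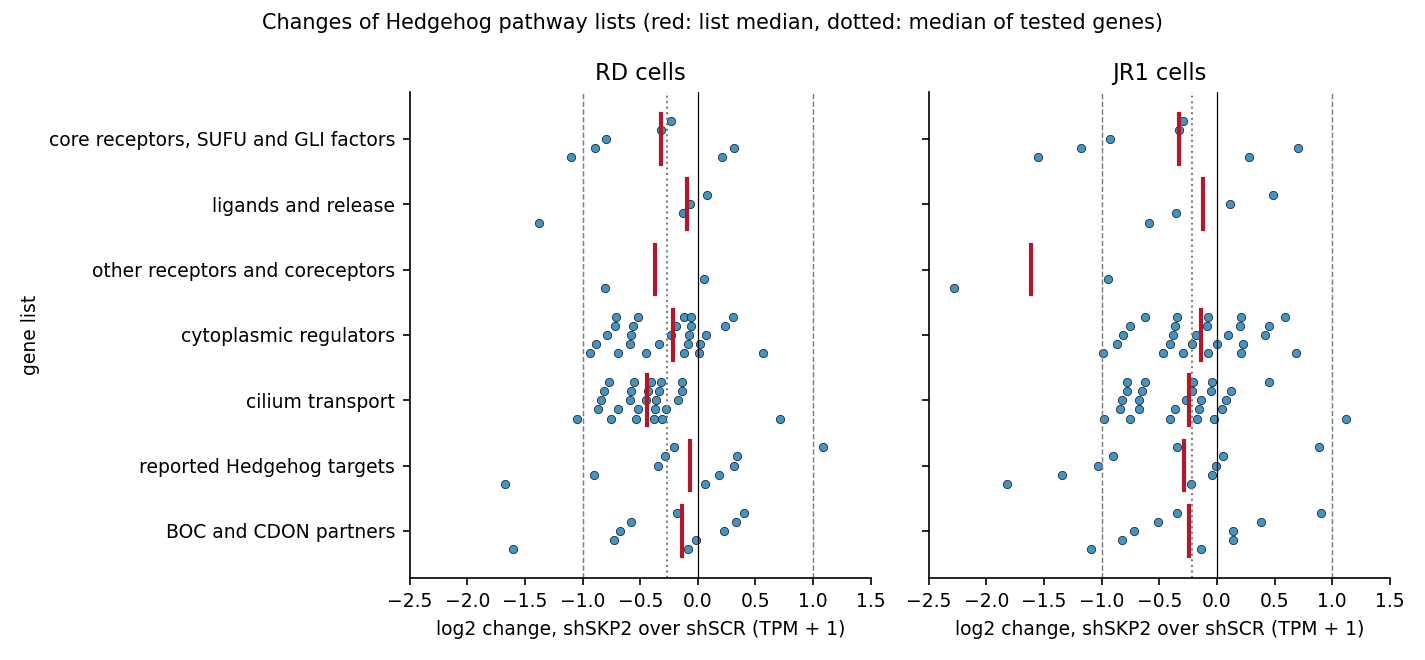
Log2 change of TPM + 1 (shSKP2 over shSCR) of each compared gene (blue points) by list in RD and JR1, with list medians in red, the median of all compared genes dotted and the 2-fold limit dashed. The median of the other receptors, which rests on GAS1 and GPC3, lies at -1.61 in JR1 and -0.37 in RD, and those of the other plotted lists lie between -0.44 and -0.07.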

How the data were processed

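TPM of 4 libraries were used. The authors selected poly-A RNA, made directional libraries, aligned paired reads to GRCh38 with STAR 2.7.9a and estimated expression with RSEM 1.3.2, and the deposited TPM, with 1 value per gene symbol, sum to about 1000000 in each library. The strand setting and gene annotation of the counting are not given in the sources used here. TPM retain no read counts, so depth and counting error are unknown. Differences were log2 ratios of TPM + 1, with a minimum mean of 1 TPM and a limit of 2-fold, computed over all genes in Python 3.11.15 (numpy 2.4.6, pandas 2.3.3, matplotlib 3.10.9) after the code was tested on simulated data. Both lines together were compared with limma 3.58.1 in R 4.3.3 (trended prior, threshold 0.05 on the adjusted p), paired by line as the study pairs each shSKP2 library with its shSCR library, and this was added after the data were seen. Alternatives were an offset of 0.1 TPM, centring on the median, removal by symbol of 2949 genes of short structural RNAs (7SL, 7SK, RMRP, RPPH1, U, Y, vault, ribosomal, nucleolar, micro and transfer RNAs), other minima and a limit of 1.5-fold. The named genes are the 9 core genes, the ligands, GAS1, MYOD1, MYOG, SKP2 and, per list, up to 4 genes past the limit after knockdown. A further gene of the rule is not reported here. Genes outside this rule are said to be so or serve as lineage checks. Genes and lists were chosen with earlier results of these data known. For each compared member the 2 genes nearest in log2(TPM + 1) over the 4 libraries were found. Coordinates are those of the tables (GRCh38), and promoters were read from a RefSeq table of GRCh38.p14.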

Additional observations from a re-analysis of the deposited data

Results flagged for a closer look

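GAS1, a Hedgehog coreceptor, had differences of opposite sign in the lines after SKP2 knockdown. It was at 167 TPM in RD shSCR and 173 TPM in RD shSKP2, a log2 change of 0.05, and at 222 TPM in JR1 shSCR and 115 TPM in JR1 shSKP2, a change of -0.95. The change in JR1 minus that in RD was -1.0003. Without structural RNA genes its values were 0.47 (RD) and -0.69 (JR1), under the limit in each line. The difference was not tested, since a difference between the lines has no replicate, and among the compared genes 21.3% had opposite signs in the lines.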

How the results depend on the processing

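The counts of members past the limit depended on the scaling and on the limit. Shares of all compared genes past the limit were not computed for the limit of 1.5-fold, the offset of 0.1 TPM or the values relative to the median. Nor were they computed between the lines without structural RNA genes. Counts under those settings describe the processing and cannot be set against all compared genes. In RD 1 member fell as reported, 0 relative to the median of compared genes, 0 without structural RNA genes and 3 with a limit of 1.5-fold. In JR1 2 fell as reported and 1 relative to the median, while 1 rose without structural RNA genes and 1 with a limit of 1.5-fold. Between the lines with shSCR, 1 member was lower in JR1 as reported, 0 relative to the median, 0 without structural RNA genes and 4 at 1.5-fold. With shSKP2 it was 2 as reported, 1 relative to the median, 3 without structural RNA genes, 3 with an offset of 0.1 TPM and 4 at 1.5-fold. The other pathway lists together, without the partners of BOC and CDON, held 68 compared genes. Of these 3 fell in RD and 4 in JR1 as reported, beside 7.37% and 9.05% of all compared genes. It was 8 and 11 with an offset of 0.1 TPM, and 19 and 22 at 1.5-fold. 1 of the 68 rose in each line as reported, beside 1.08% (RD) and 1.78% (JR1) of all compared genes. At 1.5-fold 2 and 4 rose, and relative to the median 2 did in JR1. Without structural RNA genes 75 were compared, and 2 rose in RD and 3 in JR1, beside 4.4% and 4.91% of all compared genes. A less strict limit passes more genes by construction, and a smaller offset widens the changes of low genes, while the cause of the other shifts was not tested. No called value of a member changed sign under these alternatives. With an offset of 0.1 TPM the change of GLI1 in RD went from -0.31 to -0.93, at levels under 1 TPM. The median over the members moved by less than 1.5-fold under each alternative, a margin used because no spread between replicates exists, and 193 of 224 recomputed values and counts of the single comparisons stayed within it. In the fit over both lines, added after the data were seen, 3456 compared genes were lower and 499 higher with the line as a replicate block, 3 members among the lower and 0 among the higher. Without the block it was 5 and 2 genes and 0 members, relative to each library's median 1356 and 1187 genes with 2 members higher, and without structural RNA genes 1418 and 1485 genes with 2 members higher. At an unadjusted p under 0.05 the fit without the block held 2060 genes and 0 members. TPM without read counts leave the error of low genes such as GLI1, and GLI2 in JR1 shSKP2, unknown.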

Other observations

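Genes with levels most like those of a member over the 4 libraries were found by distance on the log2(TPM + 1) scale. Nearest to GLI2 were WDR90 (distance 0.16) and TOM1L1 (0.21), and nearest to PTCH1 were NDUFAF4 (0.08) and ZNF616 (0.13). For SMO they were RHNO1 (0.10) and EGFL7 (0.18), for CDON MANBAL (0.07) and TMUB1 (0.08), for SUFU CCNT1 and ZNF84 (0.15 each), and for GLI3 POLR1C (0.14) and PRKAR1B (0.21). BOC had no near neighbour of that kind: CDC25B, a phosphatase of mitotic entry, was closest at 0.38, followed by ITPRIPL2 at 0.43. With 4 values per gene such likeness is a description of levels.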
